A study of Rattus norvegicus with 6 samples.

Results

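The transcripts described here are those of DNA repair and DNA damage signalling genes in the rat heart after repeated doxorubicin. A list of 41 genes was taken by symbol from the count table, and 37 of them were measured among the 17487 gene symbols of the table. Mre11a and H2afx were measured under their current symbols Mre11 and H2ax, and Atr, Msh6, Ercc4 and Ercc5 were not analysed here. The low-count filter of the test left 32 of the 37, among 9205 tested symbols.

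Hearts came from 6 adult male rats of the outbred Wistar strain, with 1 library of polyadenylated RNA per animal. In the doxorubicin group, 3 rats were injected in the tail vein with 3.75 mg/kg of doxorubicin hydrochloride once a week over 4 weeks, and in the control group 3 rats were given 0.9% saline on the same schedule. The chamber of the heart and the interval after the last injection were not given in the sources used here. The 6 libraries held between 2219685 and 3508282 counts. At that depth 3 counts, taken as the floor of detection, corresponded to 0.852 to 1.33 CPM, the count of a gene scaled to the size of its library, and this floor covers counting error only.

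Doxorubicin is an anthracycline that intercalates in DNA and traps topoisomerase II on cut DNA, which leaves breaks in both strands, and its redox cycling oxidises bases. Broken ends are sensed by the Mre11-Rad50-Nbn complex and the kinases Atm, Atr and DNA-PK, and are rejoined by end joining or, in dividing cells, copied from the sister chromatid by homologous recombination. Oxidised bases and nicks are handled by base excision repair, bulky lesions by nucleotide excision repair and mispaired bases by mismatch repair. Adult cardiomyocytes have mostly left the cell cycle, so end joining and excision repair are the routes usually held to matter in them. Much of the damage response runs through phosphorylation and recruitment of proteins, which RNA levels do not measure.

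Defining markers of cardiomyocytes were abundant in all libraries, with 6 of 7 listed markers measured and a summed level of 90285 to 97103 CPM in control and 71149 to 83304 CPM in doxorubicin hearts, ranges that do not overlap. All 6 of these markers had a log2 fold change below 0, but the size was uneven. The 3 with an unadjusted p under 0.05 were Ryr2 at -1.62, Myh6 at -0.73 and Tnni3 at -0.45. Actc1 at -0.14, Tnnt2 at -0.11 and Myl2 at -0.02 were closer to level. Myh6 had a mean of 24591 CPM without and 14821 CPM with doxorubicin, and its groups overlapped. Ryr2, which encodes the cardiac ryanodine receptor, fell with an adjusted p of 0.0440 in edgeR's test. Whether single marker genes changed on their own was not tested. Macrophage markers summed to 47.7 to 82.6 CPM in control and 82.5 to 112 CPM in doxorubicin hearts, with Ptprc listed at 0 in all libraries. The 5 lymphocyte markers summed to at most 10.7 CPM in any library. The 14 markers of proliferating cells summed to 67.5 to 85.5 CPM in control and 44.9 to 64.6 CPM in doxorubicin hearts, and these ranges did not overlap either. In whole heart tissue, fewer cells of a type and less RNA per cell cannot be told apart, and the part of cell composition in the values that follow was not tested.

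None of the 32 tested repair transcripts passed a Benjamini-Hochberg adjusted p of 0.05 in edgeR's quasi-likelihood test, against 0.0543% of all tested symbols. At an unadjusted p under 0.05 there was 1 member, H2ax, 3.12% of the 32 against 8.10% of all tested symbols, and it was lower in doxorubicin hearts, as were 4.11% of all tested symbols. The CPM of the groups did not overlap for 3 members, H2ax, Apex1 and Parp2, which was 9.38% against 13.4% of all tested symbols. Of these, Parp2 was higher, as were 6.39% of all tested symbols, and H2ax and Apex1 were lower, as were 7.06%. Scaling by library size alone turned the split of all symbols at an unadjusted p under 0.05 from 368 higher and 378 lower to 487 higher and 226 lower, and that of symbols without overlap from 588 and 650 to 825 and 466. The fitted log2 fold change was above 0 for 18 members, 56.2% against 52.1% of all tested symbols. The median over the members was 0.13 against 0.02 over all tested symbols. The share of members at an unadjusted p under 0.05 and the share without overlap both lay below the background, so neither count sets these members apart.

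The precision behind these values varied with depth. Standard errors of the log2 fold change ran from 0.17 for Parp1, with 506 to 879 counts per library, to 0.55 for Mdc1, with 3 to 23 counts. The 95% interval lay within 1 log2 unit of 0, which is a 2-fold change either way, for 17 of the 32 members, 53.1% against 70.3% of all tested symbols. For the other members, H2ax among them, the interval reached past a 2-fold change in at least 1 direction, so a change of that size was not excluded.

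**Figure D1:**
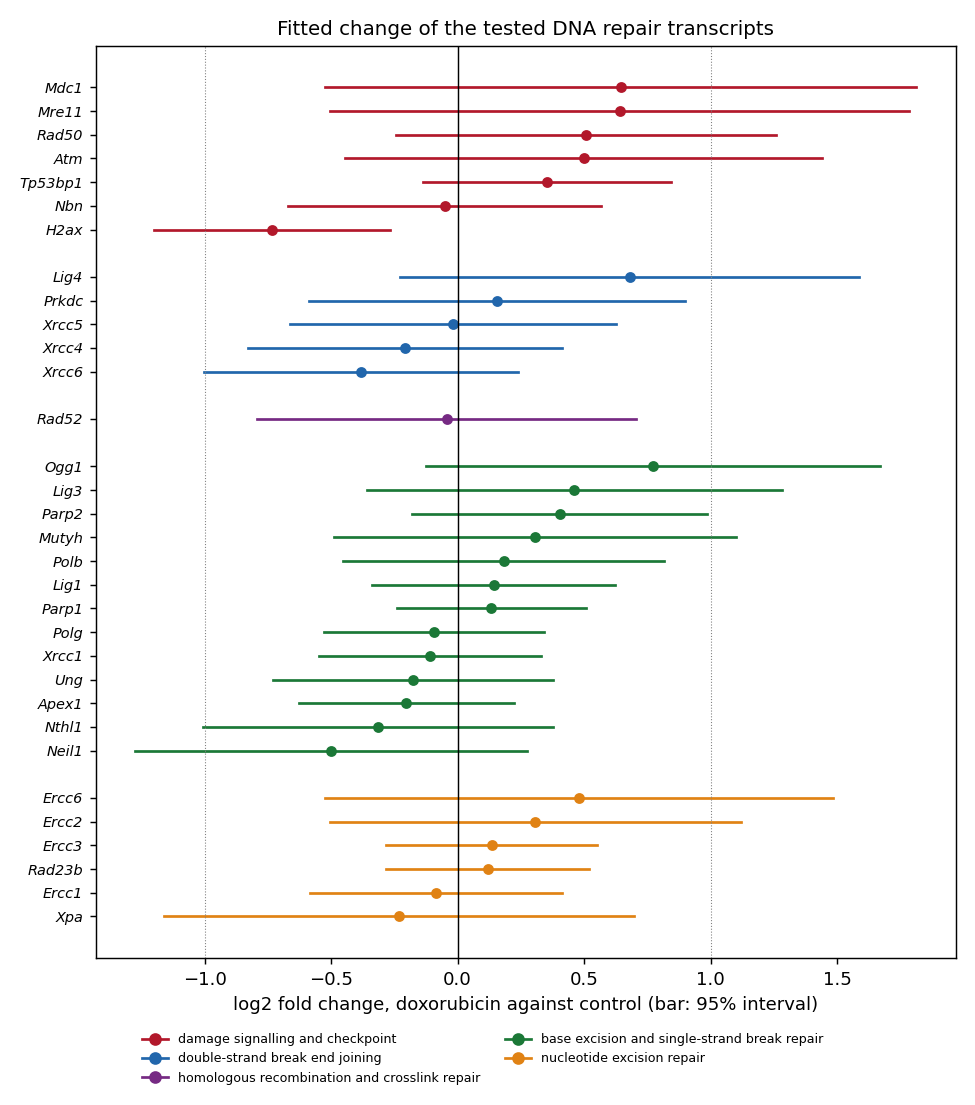
Fitted log2 fold change in doxorubicin against control hearts for the 32 tested repair transcripts, grouped by role, with 95% intervals from edgeR's quasi-likelihood fit. Dotted lines mark 1 log2 unit either way, and among these members the interval of H2ax alone does not cross 0.

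The promoters of the 3 members whose groups did not overlap are shown because they differ in the core motifs they carry. Windows run from 250 bases before to 50 bases after the start site on the gene's own strand, 5′ to 3′, as given by RefSeq for the build GRCr8, and 31 of the 37 members were matched. Capitals mark the CCAAT box, the TATA motif TATAAA, the GC box GGGCGG and the E-box CACGTG, each on either strand. The H2ax window is chr8:53568468-53568767 on the plus strand, the Apex1 window chr15:26617976-26618275 on the plus strand, and the Parp2 window chr15:26507409-26507708 on the plus strand.
H2ax: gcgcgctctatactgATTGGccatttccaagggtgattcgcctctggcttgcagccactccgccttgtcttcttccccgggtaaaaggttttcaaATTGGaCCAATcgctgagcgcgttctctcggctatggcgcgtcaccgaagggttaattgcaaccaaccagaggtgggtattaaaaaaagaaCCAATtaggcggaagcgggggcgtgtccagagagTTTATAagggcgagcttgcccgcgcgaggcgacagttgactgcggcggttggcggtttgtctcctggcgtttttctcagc
Apex1: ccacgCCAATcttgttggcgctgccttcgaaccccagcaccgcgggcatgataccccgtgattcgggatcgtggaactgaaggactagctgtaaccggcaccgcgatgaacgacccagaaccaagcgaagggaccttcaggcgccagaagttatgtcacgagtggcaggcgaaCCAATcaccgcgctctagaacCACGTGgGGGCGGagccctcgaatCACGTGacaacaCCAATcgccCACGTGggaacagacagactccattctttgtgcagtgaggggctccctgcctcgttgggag
Parp2: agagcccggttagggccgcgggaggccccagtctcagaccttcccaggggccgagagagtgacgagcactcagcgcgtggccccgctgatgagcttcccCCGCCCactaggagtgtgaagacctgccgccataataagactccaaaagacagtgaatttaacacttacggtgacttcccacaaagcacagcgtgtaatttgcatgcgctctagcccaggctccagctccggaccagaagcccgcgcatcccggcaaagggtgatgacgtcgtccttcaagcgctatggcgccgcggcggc

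The H2ax window held 4 CCAAT motifs and 1 TATAAA motif, which starts at -30 relative to the start site and reads TTTATA on the printed strand. H2ax was the only member of the 31 with TATAAA, 3.23% against 6.28% of the 7390 windows of tested symbols. The Apex1 window held 3 CCAAT motifs, 3 E-boxes and 1 GC box, and the Parp2 window held 1 GC box alone. Over the members, CCAAT was present in 12 windows, 38.7% against 37.7% of windows of tested symbols, and GGGCGG in 20 windows, 64.5% against 64.4%. CACGTG was present in 4 windows, 12.9% against 9.63%. The motif TTCCCGC, a partial site bound by E2F factors of the cell cycle, was present in 7 windows, those of Atm, Brca1, Chek1, Fancd2, Rad50, Ung and Xrcc4, 22.6% against 8.36%. It can share bases with a GC box read on the other strand. The 31 windows of members include those of Brca1, Chek1 and Fancd2, which did not pass the filter. The shares and GC content set beside them are of tested symbols only, so the 2 sets are not alike in this. The median GC content of the members' windows was 59.7%, against 61.3% for tested symbols. A match in a window is a description of its letters and not of a bound site.

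Among the genes of damage signalling, H2ax encodes the histone H2A variant that Atm, Atr and DNA-PK phosphorylate around breaks. It was at 97.8, 72.0 and 58.5 CPM in control hearts 1, 2 and 3 and at 42.4, 48.4 and 46.3 CPM in doxorubicin hearts 1, 2 and 3, on 132 to 256 counts per library. All doxorubicin hearts were lower than all control hearts, and the control hearts were spread more widely. The means were 76.1 ± 19.9 CPM in control and 45.7 ± 3.04 CPM in doxorubicin (SD, n = 3). On the log2 scale the difference was -0.73 (SE 0.22, 95% interval -1.20 to -0.27), with an adjusted p of 0.304 in edgeR's quasi-likelihood test, so H2ax did not pass over all symbols. Control heart 1 was the highest, and without it the log2 fold change was -0.50, with an unadjusted p still under 0.05. Correction for gene span, which is 1355 bases for H2ax, brought the log2 fold change to -0.57. Proliferating-cell, cardiomyocyte and erythroid markers went the same way as H2ax. Those above 0 were 1 of 8, 0 of 6 and 0 of 6 tested, against 52.1% of all tested symbols. Some were nearly level, such as Myl2 at -0.02 and Tyms at -0.09 in log2. By library, these markers did not run alike. Hba-a1 and Tnni3 were, like H2ax, highest in control heart 1. Among the control hearts, Slc4a1, Mki67, Top2a, Myh6 and Ryr2 were instead lowest in control heart 1. Macrophage markers went the other way, with 4 of 5 above 0, and fibroblast markers had 3 of 6 above 0. The part of these markers in the H2ax difference was not tested. In the RefSeq gene list the span of H2ax overlapped no other gene.

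Tp53bp1 encodes the reader of modified chromatin at breaks that favours end joining. It was at 33.6, 53.3 and 51.7 CPM in control hearts and at 58.4, 70.2 and 48.6 CPM in doxorubicin hearts, so the groups overlapped through doxorubicin heart 3. The log2 fold change was 0.35 (SE 0.23, 95% interval -0.14 to 0.85), with an adjusted p of 0.729 in edgeR's test. It was 0.18 without control heart 1 and 0.22 without doxorubicin heart 2, but 0.47 without control heart 2 and 0.49 without doxorubicin heart 3. The span of Tp53bp1 overlaps those of Tubgcp4 and Map1a in the RefSeq gene list. Atm, the apical kinase of the break response, was at 3.82, 15.1 and 7.38 CPM in control and at 8.02, 12.5 and 15.9 CPM in doxorubicin hearts, on 10 to 54 counts. Its log2 fold change was 0.50 (SE 0.44) and moved both ways with single libraries, to 0.16 without control heart 1, the lowest library, and to 1.09 with an unadjusted p under 0.05 without control heart 2.

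The Mre11-Rad50-Nbn complex tethers and trims broken ends. Rad50 was at 6.49, 20.4 and 18.7 CPM in control hearts and at 21.5, 18.7 and 24.8 CPM in doxorubicin hearts. Again control heart 1 stood low, and the log2 fold change of 0.51 (SE 0.35) was 0.16 without it. With 1 library left out at a time, the change of Rad50 ran from 0.16 to 0.76. Nbn was at 21.0, 44.9 and 47.7 CPM in control and at 27.9, 41.8 and 40.1 CPM in doxorubicin hearts, with a log2 fold change of -0.05 (SE 0.29). For Mre11, with 7 to 35 counts per library, the fitted difference was 0.64 (SE 0.53) in log2. It was 0.51 without control heart 1 and 1.05, with an unadjusted p under 0.05, without doxorubicin heart 1. Mdc1, whose product is a scaffold that binds phosphorylated H2ax, also stood at 0.64 (SE 0.55) in log2. The 7 tested signalling genes had a median log2 fold change of 0.50, which became 0.16 without control heart 1 and 0.26 without doxorubicin heart 3. In the fit with all 6 libraries, none besides H2ax had an unadjusted p under 0.05.

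Both checkpoint kinases were near the floor. Chek1, the kinase downstream of Atr in replicating cells, had 0, 5 and 11 counts in control and 10, 3 and 6 in doxorubicin libraries. Chek2, the kinase downstream of Atm, had 5, 0 and 3 counts in control and 2, 2 and 1 in doxorubicin libraries. Neither passed the filter, and so few counts do not allow a difference to be detected.

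Among the end-joining genes, Prkdc encodes the catalytic subunit of DNA-PK. It was at 7.64, 22.2 and 23.9 CPM in control hearts and at 18.6, 20.3 and 21.2 CPM in doxorubicin hearts. The doxorubicin values all lay inside the control range. Its log2 fold change was 0.16 (SE 0.35, 95% interval -0.59 to 0.90) and became -0.20 without control heart 1.

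The Ku subunits Xrcc5 (Ku80) and Xrcc6 (Ku70) encircle broken ends and recruit DNA-PK. Xrcc5 was at 14.9, 28.0 and 24.4 CPM in control and at 14.8, 26.5 and 25.1 CPM in doxorubicin hearts, and both groups had a low library. Its log2 fold change was -0.02 (SE 0.30, 95% interval -0.66 to 0.63). For Xrcc6, measured by 35 to 60 counts, the log2 difference was -0.38 (SE 0.29). The ligation step is carried out by the scaffold Xrcc4 and the ligase Lig4. For Xrcc4, measured by 31 to 50 counts, it was -0.21 (SE 0.29).

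Lig4 was at 3.82, 22.2 and 15.9 CPM in control hearts and at 21.5, 20.6 and 24.8 CPM in doxorubicin hearts, on 10 to 84 counts. Control heart 2 lay inside the doxorubicin range and control heart 1 was far below the rest. Lig4 differed by 0.68 in log2 (SE 0.42), with an adjusted p of 0.719 in edgeR's test, by 0.25 without control heart 1, and by 1.14 with an unadjusted p under 0.05 without control heart 2. Of the 5 end-joining genes 2 were above 0 and 3 below, and none had an unadjusted p under 0.05.

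**Figure D2:**
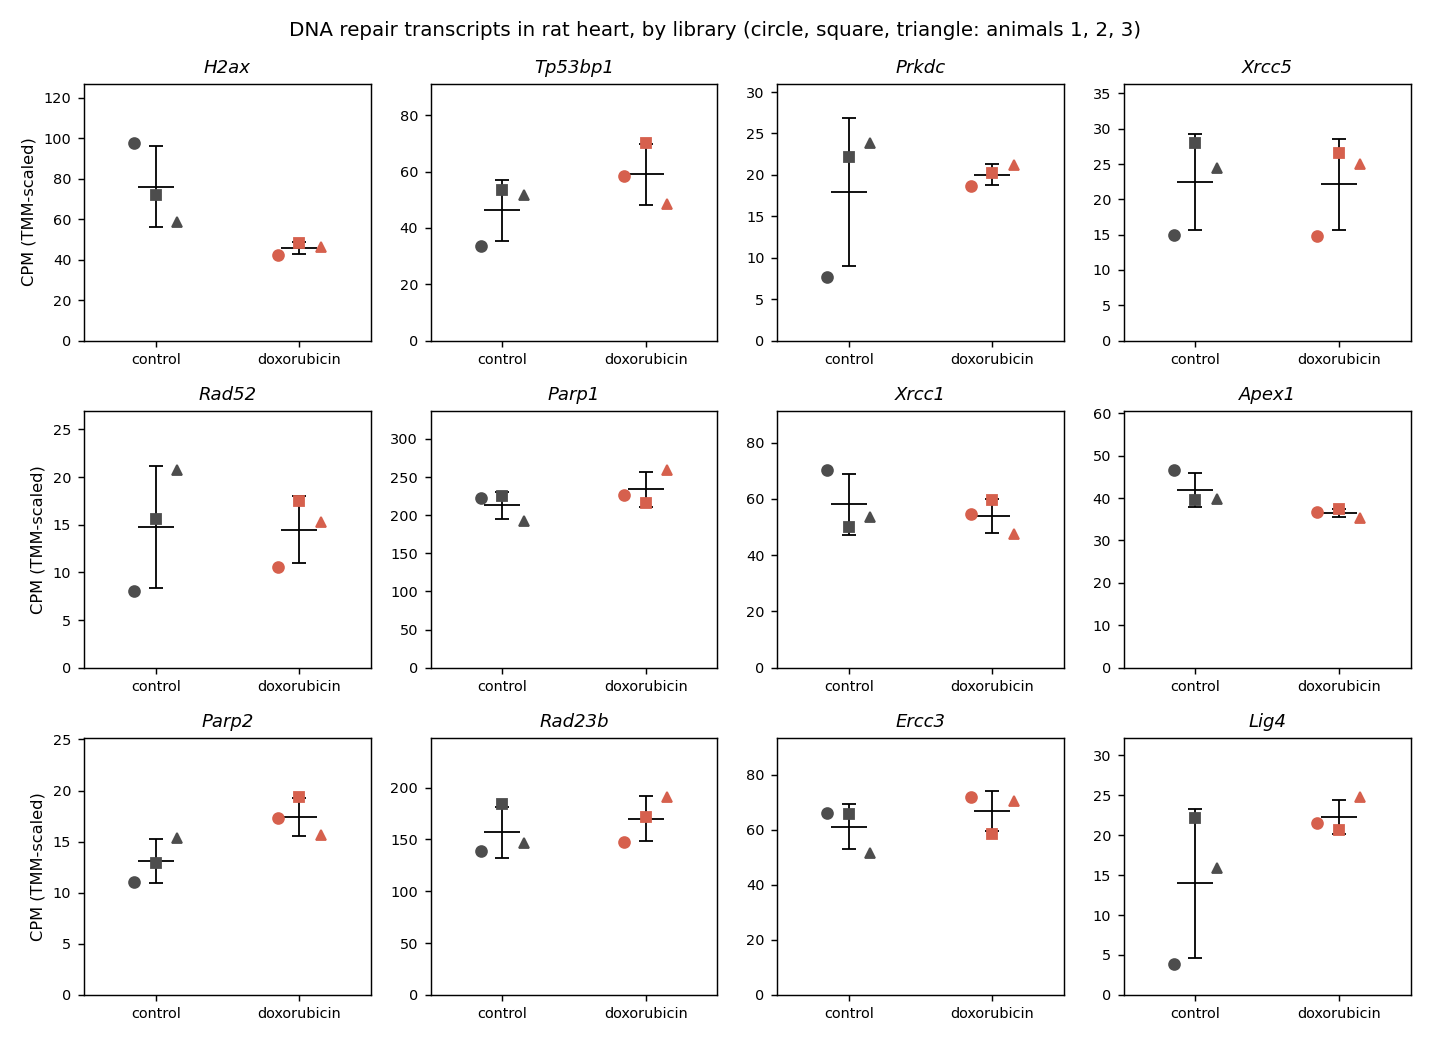
CPM scaled by trimmed mean of M-values for 12 repair transcripts in control (grey) and doxorubicin (red) hearts; each marker is 1 animal, the bar is the mean and the whisker 1 SD (n = 3). H2ax, Apex1 and Parp2 are the panels whose groups do not overlap, and Lig4 and Prkdc show control heart 1 (grey circle) far below the other control hearts.

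Homologous recombination and crosslink repair had 4 members, most of them with too few counts to pass the filter. Rad52, which anneals single-stranded DNA, was the only tested member of this group, at 8.02, 15.5 and 20.7 CPM in control and at 10.6, 17.5 and 15.3 CPM in doxorubicin hearts. The doxorubicin values lay inside the control range, with a log2 fold change of -0.04 (SE 0.35, 95% interval -0.79 to 0.71). Brca1, which promotes resection of broken ends, had 0, 2 and 3 counts in control and 6, 4 and 4 counts in doxorubicin libraries. The groups of Brca1 did not overlap, but all control libraries were at or below the floor of 3 counts. With no filter its edgeR log2 fold change was 1.24 (SE 0.98, adjusted p 0.816). Brca2, which acts later in recombination, had 3, 6 and 14 counts in control and 14, 4 and 4 counts in doxorubicin libraries. Fancd2, the crosslink repair protein, had 5 to 8 counts in all libraries. Of the 7 members whose promoter window held TTCCCGC, Brca1, Chek1 and Fancd2 were left out by the filter.

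Base excision repair and nick sealing had 13 members, all of them tested. Parp1, the main sensor of DNA nicks that builds poly(ADP-ribose), was at 222, 225 and 193 CPM in control hearts and at 226, 216 and 259 CPM in doxorubicin hearts. The groups overlapped, with a log2 fold change of 0.13 (SE 0.17, 95% interval -0.24 to 0.51). Its relative Parp2 was at 11.1, 12.9 and 15.3 CPM in control and at 17.3, 19.3 and 15.6 CPM in doxorubicin hearts. All doxorubicin values of Parp2 were above all control values, by a narrow gap between control heart 3 and doxorubicin heart 3. Parp2 differed by 0.40 in log2 (SE 0.27), with an adjusted p of 0.737 in edgeR's test. Of the 37 measured members, 16 overlap a coding gene in the RefSeq gene list. The span of Parp2 overlaps the coding gene Ccnb1ip1 and the RNA gene Rpph1, and the use of strand in counting was not given in the sources used here.

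Xrcc1, the scaffold that gathers ligase and polymerase at nicks, was at 70.3, 50.2 and 53.7 CPM in control and at 54.6, 59.6 and 47.5 CPM in doxorubicin hearts. Its groups overlapped, with a log2 fold change of -0.11 (SE 0.20, 95% interval -0.55 to 0.33). Apex1, the endonuclease that cuts at abasic sites, was at 46.6, 39.5 and 39.8 CPM in control and at 36.6, 37.4 and 35.4 CPM in doxorubicin hearts. The doxorubicin values were all lower, and the gap between the groups was narrow. In log2, Apex1 differed by -0.20 (SE 0.20), with an adjusted p of 0.832 in edgeR's test. Correction for gene span brought it to -0.07, and it was -0.12 without control heart 1.

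Ogg1 encodes the glycosylase that removes 8-oxoguanine, the commonest oxidised base. It was at 8.02, 5.33 and 3.69 CPM in control and at 8.35, 13.7 and 6.78 CPM in doxorubicin hearts, on 12 to 44 counts. Doxorubicin heart 3 lay below control heart 1, so the groups overlapped. Its log2 fold change of 0.77 (SE 0.42, adjusted p of 0.677 in edgeR's test) was the largest of the 32 members. It was 1.12 without control heart 1, 0.51 without control heart 3 and 0.44 without doxorubicin heart 2. The span of Ogg1 overlaps that of Camk1, a kinase gene, in the RefSeq list.

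The other glycosylases differed in sign. Mutyh, which removes adenine opposite 8-oxoguanine, was at 0.31 in log2 (SE 0.37). Ung, the uracil glycosylase, had -0.18 (SE 0.26). Neil1 and Nthl1, which remove oxidised pyrimidines, had -0.50 (SE 0.36) and -0.32 (SE 0.32). Of the polymerases, Polb, which fills the gap in the nucleus, was at 0.18 in log2 (SE 0.30), and Polg, the mitochondrial DNA polymerase, had -0.09 (SE 0.20). Of the ligases, Lig1 had 0.14 (SE 0.22) and Lig3, which also serves mitochondria, had 0.46 (SE 0.38). The group's median was 0.13, with 7 above 0 and 6 below, and none had an unadjusted p under 0.05.

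Nucleotide excision repair had 6 tested members. Rad23b, the partner of the lesion sensor Xpc, was at 139, 184 and 147 CPM in control hearts and at 147, 172 and 191 CPM in doxorubicin hearts. The groups overlapped across most of their range, with a log2 fold change of 0.12 (SE 0.19, 95% interval -0.28 to 0.52). Ercc3, the XPB helicase of the transcription factor TFIIH, was at 66.1, 65.8 and 51.7 CPM in control and at 71.9, 58.7 and 70.4 CPM in doxorubicin hearts. Its log2 fold change was 0.14 (SE 0.19, 95% interval -0.28 to 0.55). Both genes had counts above 100 in every library, and for both a 2-fold change lay outside the interval.

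Ercc6, which encodes the CSB protein that clears stalled RNA polymerase, was at 7.26, 16.4 and 14.8 CPM in control hearts and at 33.4, 8.11 and 12.4 CPM in doxorubicin hearts. Doxorubicin heart 1 alone was high, and the other doxorubicin hearts lay inside the control range. The log2 fold change was 0.48 (SE 0.47) and turned to -0.32 without doxorubicin heart 1. Ercc2, the XPD helicase of TFIIH, differed by 0.31 in log2 (SE 0.38), and Ercc1, a subunit of the incision nuclease, -0.09 (SE 0.23). Xpa, which verifies the lesion, had -0.23 (SE 0.43), on 9 to 27 counts. The median of the 6 was 0.13, with none at an unadjusted p under 0.05.

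Control heart 1 had the lowest CPM of the 6 libraries for 13 of the 32 members, 40.6% against 27.5% of all tested symbols. These 13 were Atm, Rad50, Nbn, Tp53bp1, Prkdc, Lig4, Rad52, Mutyh, Polb, Lig3, Parp2, Ercc6 and Rad23b. Control heart 1 also had the highest haemoglobin transcripts, with Hba-a1 at 4150, 1233 and 1562 CPM in control and at 421, 1425 and 1533 CPM in doxorubicin hearts. Erythroid markers summed to 2000 to 7238 CPM in control and 688 to 2655 CPM in doxorubicin hearts. Its trimmed mean of M-values scaling factor, 0.892, was the lowest of the 6. The part of these in the low values was not tested. Doxorubicin heart 3 was the highest for 10 of the 32, 31.2% against 20.6%. Over the members, the median SD as a share of the mean was 22.0% in control and 17.4% in doxorubicin hearts, against 19.5% and 18.3% over all tested symbols. Across all 9154 tested symbols with a known gene span, the log2 fold change was higher for genes of longer span (Spearman's rho 0.22). Across the 32 members rho was 0.22, and 0.08 without control heart 1. The rho over all symbols without control heart 1 was not computed, so the 0.08 has no background beside it. These correlations are across genes of the same libraries, which are not independent replicates.

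**Figure D3:**
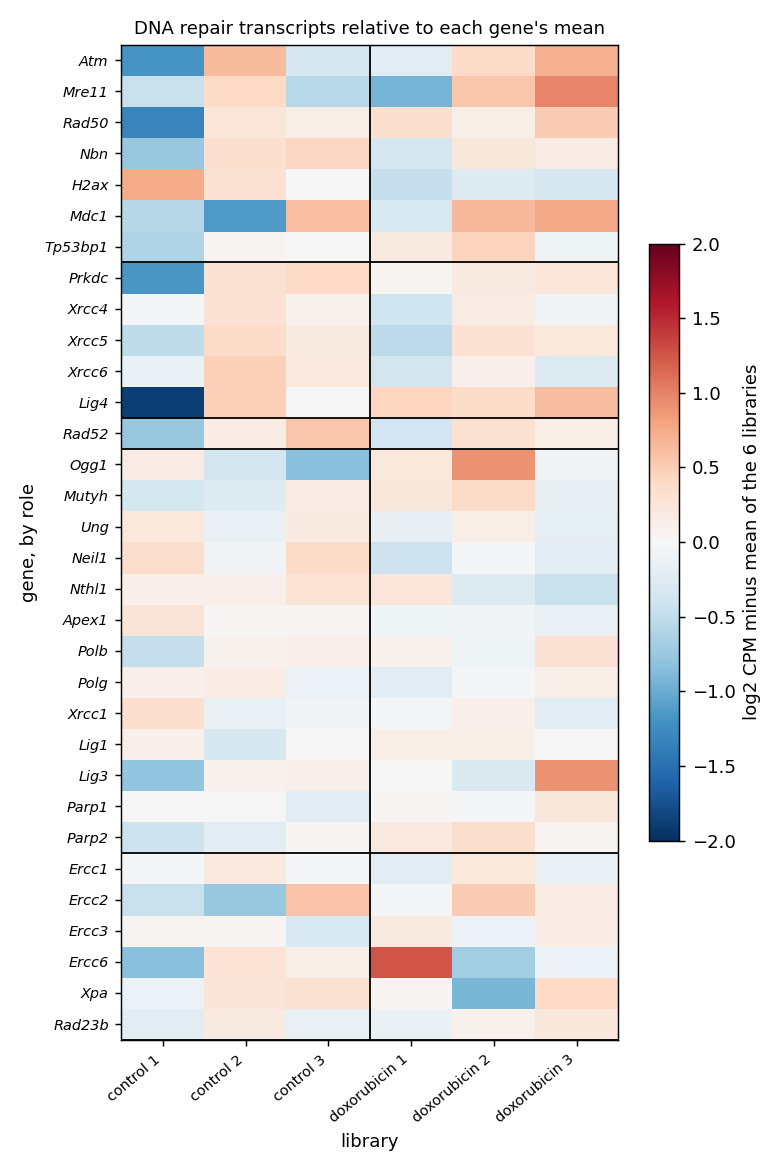
Log2 CPM of each tested repair transcript minus its mean over the 6 libraries (colour), with genes in rows by role and libraries in columns. Control heart 1 is the lowest library for Lig4, Rad50, Atm and Prkdc, H2ax is lower in all 3 doxorubicin hearts than in any control heart, and Ercc6 is high in doxorubicin heart 1 alone.

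Other genes of the same pathways were taken from a wider list of 108, of which 90 were measured and 68 tested. None passed the adjusted threshold in edgeR's test. At an unadjusted p under 0.05 there were 4, all higher in doxorubicin hearts, 5.88% against 8.10% of all tested symbols in either direction and 4.00% in that direction. In 9 of the 68 the groups lay apart, 13.2% against 13.4%. Of these 9, 7 were higher and 2 lower in doxorubicin hearts, against 588 higher and 650 lower among all 9205 tested symbols. The median log2 fold change was 0.08, against 0.02 over all tested symbols.

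Usp7, a deubiquitinase that acts on Mdm2 and p53, was at 45.8, 60.0 and 65.3 CPM in control hearts and at 90.8, 77.7 and 106 CPM in doxorubicin hearts. The groups did not overlap, with a log2 fold change of 0.68 (SE 0.20, adjusted p 0.314 in edgeR's test). Uimc1, which brings the Brca1-A complex to ubiquitin at breaks, was at 43.5, 41.3 and 50.8 CPM in control and at 65.2, 62.4 and 64.0 CPM in doxorubicin hearts. Its doxorubicin values were close together and higher than in any control heart, and the log2 difference was 0.49 (SE 0.19, adjusted p 0.498 in edgeR's test).

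Xpc, the lesion sensor of nucleotide excision repair and a p53 target, was at 11.8, 15.1 and 16.2 CPM in control and at 32.1, 16.8 and 19.5 CPM in doxorubicin hearts. Doxorubicin heart 1 was the highest, as for Ercc6, and the gap between the groups was narrow. The log2 fold change of Xpc was 0.66 (SE 0.30, adjusted p 0.594 in edgeR's test), and 0.34 without doxorubicin heart 1. Alkbh1, a dioxygenase that demethylates nucleic acids, was at 11.5, 16.0 and 12.8 CPM in control and at 15.4, 25.0 and 24.5 CPM in doxorubicin hearts. Its groups overlapped, with a log2 fold change of 0.70 (SE 0.29, adjusted p 0.543 in edgeR's test). An unadjusted p under 0.05 held in 17 of 17 alternative fits for Usp7, 15 for Uimc1, 13 for Alkbh1 and 9 for Xpc. Without control heart 1, 2 of 70 tested genes of the list had one, 2.86% against 5.61% of all symbols tested in that fit.

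Of the wider list's mismatch repair genes, 6 were tested and 5 were above 0, 83.3% against 52.1% of all tested symbols. None of the 6 had an unadjusted p under 0.05 in edgeR's test. Of 36 listed genes of recombination and crosslink repair, 25 were measured and 11 of these passed the filter. Of all 17487 symbols measured, 9205 passed it. The mean CPM of these 11 genes ran from 4.79 to 64.5.

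**Figure D4:**
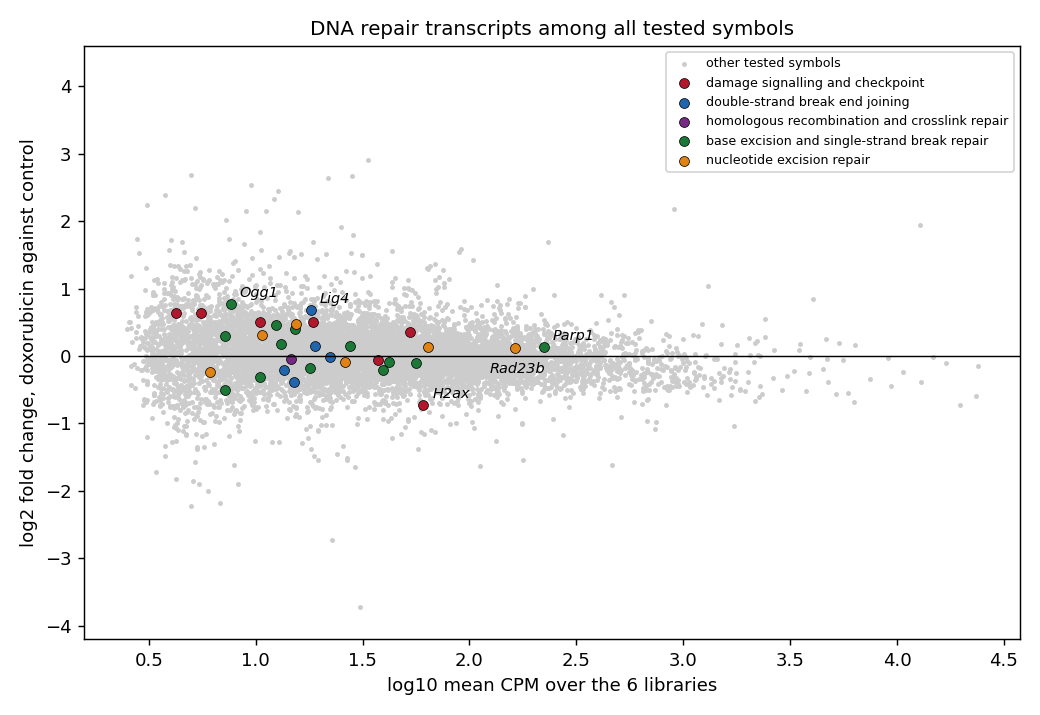
Log2 fold change against the log10 of the mean CPM for all 9205 tested symbols (grey) and the 32 repair transcripts (coloured by role). The repair transcripts lie within the cloud of all symbols, between -0.73 for H2ax and 0.77 for Ogg1.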

How the data were processed

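The authors deposited raw read counts per gene symbol for 6 heart libraries, not normalized, as a single table. Per the submitters' processing notes, FastQC, Trimmomatic, STAR and HTSeq were used with the build mRatBN7.2; versions, counting mode and use of strand were not given in the sources used here. Rows of a symbol were summed, and each measured member stood on 1 row. The fit covered the whole table with edgeR 4.0.16 (R 4.3.3): trimmed mean of M-values (TMM) scaling, filterByExpr with a minimum count of 10 and minimum total of 15, robust quasi-likelihood F test of treatment, and Benjamini-Hochberg adjustment over 9205 symbols with a threshold of 0.05. A standard error is the absolute log2 fold change over the square root of F, and 95% intervals use the fit's degrees of freedom. Log2 CPM used a prior count of 2. The script was tested on simulated data. Older symbols were matched through RefSeq; H2afx is listed there under both H2ax and its neighbour Dpagt1, and H2ax was taken.

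The members and lists were chosen with earlier results of these data known. Values per library are given for members with an unadjusted p under 0.05 or groups that do not overlap, and for the 2 most abundant tested members of each role; other members given that way were chosen after their values were seen, while the genes named from the wider list have an unadjusted p under 0.05. P-values weigh the difference between the groups against the spread between these animals, a spread the fit estimates partly from all tested symbols. Alternatives included DESeq2 1.42.0 and limma 3.58.1 (voom). Figures used matplotlib 3.10.9 under Python 3.11.15.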

Additional observations from a re-analysis of the deposited data

How the results depend on the processing

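The count of members whose groups do not overlap has no value of its own under DESeq2, voom, another dispersion or a block, which leave CPM unchanged or rescale it as another alternative does. Restricting to listed symbols was chosen after seeing the data. No member passed an adjusted p of 0.05 in any of the 18 alternatives. H2ax kept its direction and an unadjusted p under 0.05 in all 17 refits (log2 fold change -0.90 to -0.50, adjusted p 0.172 to 0.801). The median of the members was 0.05 without control heart 1 to 0.22 with library size only, where the median of all symbols was 0.10. Against 5 genes of the whole table past the adjusted threshold, scaling by library size only and voom each gave 0 (713 and 740 at an unadjusted p under 0.05), no filter 61, DESeq2 75, non-robust dispersion 1 and the gene span correction 8. Leaving out 1 library gave 0 to 35. Members at an unadjusted p under 0.05, 1 in the fit reported, numbered 2 under voom (with Lig4) and the gene span correction (with Ogg1), 0 with listed symbols only, which drops H2ax, and 1 to 3 when a library was left out (3.03% to 9.09%, against 5.61% to 9.53% of all symbols); all symbols gave 8.04% under voom and 8.83% with the span correction, against 6.25% of members in both. The wider list gave 7 with no filter (8.05%, against 7.49% of all symbols) and 2 to 5 when a library was left out (2.86% to 7.04%). Of those 7, Polq and Neil3 were lower in doxorubicin hearts, on 0 to 16 and 0 to 3 counts per library, and the others were higher. Members whose groups do not overlap numbered 6 to 11 when a library was left out, 18.8% to 33.3%, against 20.6% to 26.5% of all symbols; the highest was without doxorubicin heart 2, 33.3% against 26.2%. Some log2 changes reversed, and the cause was not tested. Most of these were small in the fit reported, but that of Ercc6 was 0.48. With library size only, Xrcc5 was 0.054, Rad52 0.025 and Nbn 0.014; with voom, Rad52 was 0.0042 and Nbn 0.0082. When a library was left out, values ranged from -0.23 to 0.21 for Xrcc5, -0.20 to 0.44 for Prkdc, -0.33 to 0.31 for Rad52, -0.19 to 0.056 for Xrcc1, -0.33 to 0.16 for Nbn and -0.32 to 0.84 for Ercc6. The end-joining median, which is the value of Xrcc5 in the fit reported, ranged from -0.23 to 0.21 in the same way, and the base excision median from 0.0018 to 0.14.

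Blocking on the replicate number let 13 genes of the whole table pass, and 11 with the block and the gene span correction; Rad52 was 0.013 with the block and 0.0079 with both, and Nbn was 0.0014 with the block. The block changed no call of a member. Same-numbered libraries are different animals and did not deviate together (mean correlation -0.073 over 3 pairs). So few pairs cannot decide whether the number marks anything that these libraries share. The fit reported has no block.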

Other observations

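Other genes of the H2A family and a genomic neighbour of H2ax were looked at after the values of H2ax were seen. H2az1 and H2az2, which encode H2A.Z variants, were at 55.5 ± 13.6 and 53.0 ± 8.07 CPM in control and at 47.7 ± 5.87 and 38.0 ± 10.7 CPM in doxorubicin hearts (SD, n = 3). Their log2 fold changes were -0.22 (SE 0.22) and -0.48 (SE 0.24), and the groups overlapped for both. Hist3h2a had a log2 fold change of -0.15, Macroh2a1 of 0.11 and H2aj of 0.30, each with overlapping groups. Control heart 1 was the highest control library for H2ax, H2az1, H2az2, H2aj and Hist3h2a. Dpagt1, a neighbour of H2ax in the RefSeq gene list, differed by -0.05 in log2 (SE 0.18). Whether H2ax differed from these genes in its change was not tested.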
